A study of Sus scrofa with 18 samples.

Results

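The calmodulin kinase and AMPK genes described here are 9 pig genes: CAMKK1, CAMKK2, CAMK1, CAMK1D, CAMK4, CAMK2D, CAMK2G, PRKAA1 and PRKAA2. They were chosen by name, and they are 9 of the 28210 RefSeq genes with a place on the named chromosomes of the Sscrofa11.1 assembly. For each gene, all H3K4me3 and H3K27ac peaks from 3 kb before to 3 kb after the gene were taken. The study named CAMKK1 and CAMKK2 itself among genes with more H3K4me3 in longitudinal muscle, so their values in that comparison are no independent evidence of its direction. It based this on a statistical test of differential regions together with higher expression, measures that the ranks below do not repeat.

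When calcium enters a muscle cell it binds calmodulin, and calcium-calmodulin switches on several kinases. Myosin light chain kinase starts contraction directly, whereas CAMKK1 and CAMKK2 are upstream kinases that phosphorylate and activate the CAMK1 kinases and CAMK4. CAMKK2 also phosphorylates the alpha subunit of AMPK, the energy sensor of the cell, so calcium and energy state meet on the same enzyme. The CAMK2 kinases are activated by calcium-calmodulin and then by phosphorylating themselves, and the delta and gamma forms are the usual ones in smooth muscle.

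Both marks were profiled with CUT&Tag, in which an antibody directs a protein A-Tn5 fusion to cut out the marked DNA. H3K4me3 is found at promoters, and H3K27ac at promoters and enhancers that are in use. The tissue was the mesometrial side of the myometrium of Yorkshire gilts on day 15: circular muscle of pregnant gilts (GD15M_CM), longitudinal muscle of pregnant gilts (GD15M_LM) and circular muscle of gilts in the estrous cycle (CD15M_CM), with n = 2 gilts per group, 12 libraries of the marks and 6 IgG controls. Reads of both gilts were joined before peaks were called, so the values below come from 1 list per mark and tissue, with no replicates, no spread and no test. In these bulk tissues, fewer cells of a type and less of a mark per cell cannot be told apart.

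In the order GD15M_CM, GD15M_LM and CD15M_CM, the H3K4me3 lists held 33599, 31910 and 36331 peaks and the H3K27ac lists 79877, 57010 and 82037. Fold enrichment is the signal of a peak over the IgG control, and its median differed between lists, from 4.64 to 5.66 for H3K4me3 and from 3.49 to 3.79 for H3K27ac. Levels are therefore given as the percentile of a peak's fold enrichment within its own list, with 0 for a gene without a peak, and a difference of at least 10 percentile points was used as the size to count. The number of reads behind a peak is not in the lists.

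Defining genes of smooth muscle carried both marks in all 3 tissues, 10 of 10 in each. Their median H3K4me3 percentile was 77.0 in GD15M_CM, 90.1 in GD15M_LM and 87.3 in CD15M_CM. Genes of the uterine epithelium also carried H3K4me3, 7 of 7 in each tissue, with GD15M_CM percentiles of 75.1 to 81.6, GD15M_LM percentiles of 12.9 to 59.4 and CD15M_CM percentiles of 68.5 to 87.4. Both circular muscle lists therefore held the mark at epithelial genes at a higher rank than the longitudinal muscle list, and 2 of these 7 genes, KRT18 and KRT19, had no H3K27ac peak in GD15M_LM. Of 6 placed T cell genes, all had an H3K4me3 peak in each tissue, and 4 had an H3K27ac peak in GD15M_CM against 2 in each of the other lists, while CD3E and CD3D had none in any list.

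All 9 genes had an H3K4me3 peak in each tissue, against 60.0% of all genes in GD15M_CM, 61.0% in GD15M_LM and 61.7% in CD15M_CM. An H3K27ac peak was present at 8, 9 and 9 of them, against 62.9%, 61.3% and 64.9% of all genes, and the gene without a peak was CAMK4 in GD15M_CM. Among protein-coding genes alone the shares were 73.7% to 75.4% for H3K4me3 (74.6% in GD15M_LM) and 73.9%, 73.1% and 75.8% for H3K27ac. The strongest H3K4me3 peak of each gene lay in the same region in all 3 tissues. It was at 1 end of the gene for 7 of the 9 and inside the annotated gene for CAMKK2 and CAMK4. Gene models were used without strand, so an end is called lower or upper by its coordinate and is not known here to be the start, and inside means more than 3 kb from either end, with exons and introns not separated.

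The median of the 9 H3K4me3 percentiles was 82.8 in GD15M_CM, 82.9 in GD15M_LM and 80.0 in CD15M_CM. Protein-coding genes with a peak had medians of 81.5, 80.2 and 82.5. For H3K27ac the medians of the 9 genes were 91.8, 88.4 and 82.8, beside 88.0, 84.4 and 86.2. The medians of the 9 genes thus lay near those of marked protein-coding genes. Single genes differed widely within a list, as from 47.1 to 95.9 for H3K4me3 in GD15M_CM. The H3K27ac range in CD15M_CM was 42.6 to 98.4. The tissue of highest rank also differed between genes.

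**Figure D1:**
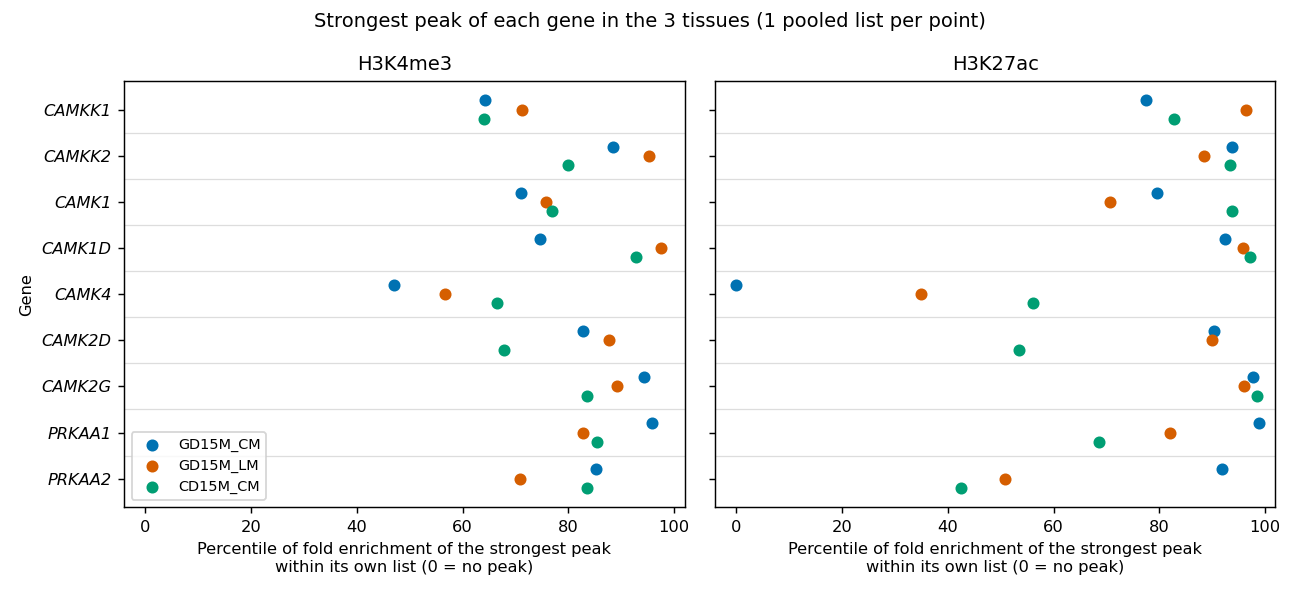
Percentile of the strongest H3K4me3 peak (left) and H3K27ac peak (right) of each gene, on horizontal axes from 0 (no peak) to 100, with 1 point per pooled list and colours for the 3 tissues. CAMK1D stands lowest in GD15M_CM for H3K4me3 (74.6), PRKAA1 and PRKAA2 stand highest in GD15M_CM for H3K27ac (98.9 and 91.8), and CAMK4 has no H3K27ac peak there.

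CAMKK1 (chromosome 12, 49922837 to 49950668, 27.8 kb) encodes calcium-calmodulin dependent kinase kinase 1. Its main H3K4me3 peak spanned the upper end of the gene, with a fold enrichment of 8.41 in GD15M_CM, 15.3 in GD15M_LM and 8.58 in CD15M_CM. These are percentiles of 64.3, 71.3 and 64.0, so longitudinal muscle ranked 7.0 points above pregnant circular muscle, under the 10 points used here, and both circular muscle lists differed by 0.3 points. The peak was also longest in GD15M_LM, at 3897 bp (49947366 to 49951262), against 2255 bp and 3227 bp. An inner H3K4me3 peak about 14.1 kb from the lower end was present in every tissue and ranked highest in CD15M_CM, at a percentile of 63.1 against 38.8 in GD15M_CM and 47.3 in GD15M_LM.

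H3K27ac over the same end of CAMKK1 formed a long domain. In GD15M_LM it was a peak of 7835 bp (49943333 to 49951167) with a fold enrichment of 7.66, at percentile 96.3, and it was the strongest H3K27ac peak of the gene. In CD15M_CM the domain had nearly the same extent, 8003 bp (49943312 to 49951314), but a fold enrichment of 2.85, at percentile 21.3. In GD15M_CM it was called as 2 main peaks of 4666 bp and 2505 bp, at percentiles of 58.4 and 42.2. The domain therefore covered the same DNA in the 3 tissues while its rank by fold enrichment was highest in longitudinal muscle. With peaks ranked by −log10 p, the domain stood at 98.9 in GD15M_LM, at 83.4 for the higher of the GD15M_CM peaks and at 75.8 in CD15M_CM, the same order with narrower gaps. The strongest H3K27ac peak elsewhere in the gene lay about 6.9 kb from the lower end in GD15M_CM (724 bp, percentile 77.5) and about 2.9 kb from it in CD15M_CM (1707 bp, percentile 82.8). Comparing strongest peaks, GD15M_LM was 18.8 points above GD15M_CM, and GD15M_CM was 5.3 points below CD15M_CM. Over the upper end alone, GD15M_CM was 37.1 points above CD15M_CM by fold enrichment, so the order of pregnant and cyclic muscle at CAMKK1 depended on which peak was read.

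CAMKK2 (chromosome 14, 31307418 to 31366504, 59.1 kb) encodes the kinase kinase that acts on AMPK as well as on the CAMK1 and CAMK4 kinases. Its main H3K4me3 peak began 4.11, 3.93 and 4.01 kb from the lower end in GD15M_CM, GD15M_LM and CD15M_CM, and no peak of comparable rank lay at either end. Fold enrichment was 19.4 in GD15M_CM, 30.5 in GD15M_LM and 18.5 in CD15M_CM, at percentiles of 88.5, 95.3 and 80.0. Longitudinal muscle was highest, by 6.8 points over pregnant circular muscle, and pregnant circular muscle was 8.5 points above cyclic. Neither difference reached 10 points, and ranked by −log10 p the first was 10.7 points and the second -1.3 points. Under the strict threshold they were 15.5 and 19.5 points, and with equal numbers of top peaks 7.4 and 10.6 points. The peak had a similar length of 2453, 2826 and 2728 bp, and the H3K27ac peak over it was 2333, 2298 and 2353 bp long.

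H3K27ac over the main CAMKK2 region ranked alike, at percentiles of 93.7 in GD15M_CM, 88.4 in GD15M_LM and 90.9 in CD15M_CM. Around it the gene carried 12, 11 and 10 H3K27ac peaks, most of them in the part of the gene towards the lower end, with a wide gap to small peaks near the upper end. Besides the main region, 4 places, chosen after their values were seen, ranked higher in CD15M_CM than elsewhere. At the lower end a peak of 1148 bp stood at percentile 92.9, against 52.1 in GD15M_CM and 84.7 in GD15M_LM. About 2.1 kb from that end a peak of 947 bp stood at 93.4, against 32.05 and 63.8. Near 15.7 kb a peak of 1738 bp stood at 91.1, against 48.0 and 26.96, and at the upper end a peak of 604 bp stood at 86.7, against 24.2 and 54.7. A further region (31321744 to 31322929) was marked in GD15M_LM, at percentile 81.9, and in CD15M_CM, at 87.4, and held no peak in GD15M_CM. The region at 31317512 to 31318280 also ranked highest in CD15M_CM, at 78.0 against 26.7 and 25.8, whereas a peak 12.9 kb from the lower end was called in GD15M_CM (66.1) and GD15M_LM (73.9) and not in CD15M_CM. With peaks near the gene ends alone, which leaves the main region out, H3K27ac GD15M_LM minus GD15M_CM was 32.5 points in place of -5.3. On that basis GD15M_CM minus CD15M_CM was -41.2 points in place of 0.3 for H3K27ac, and -25.3 in place of 8.5 for H3K4me3.

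**Figure D2:**
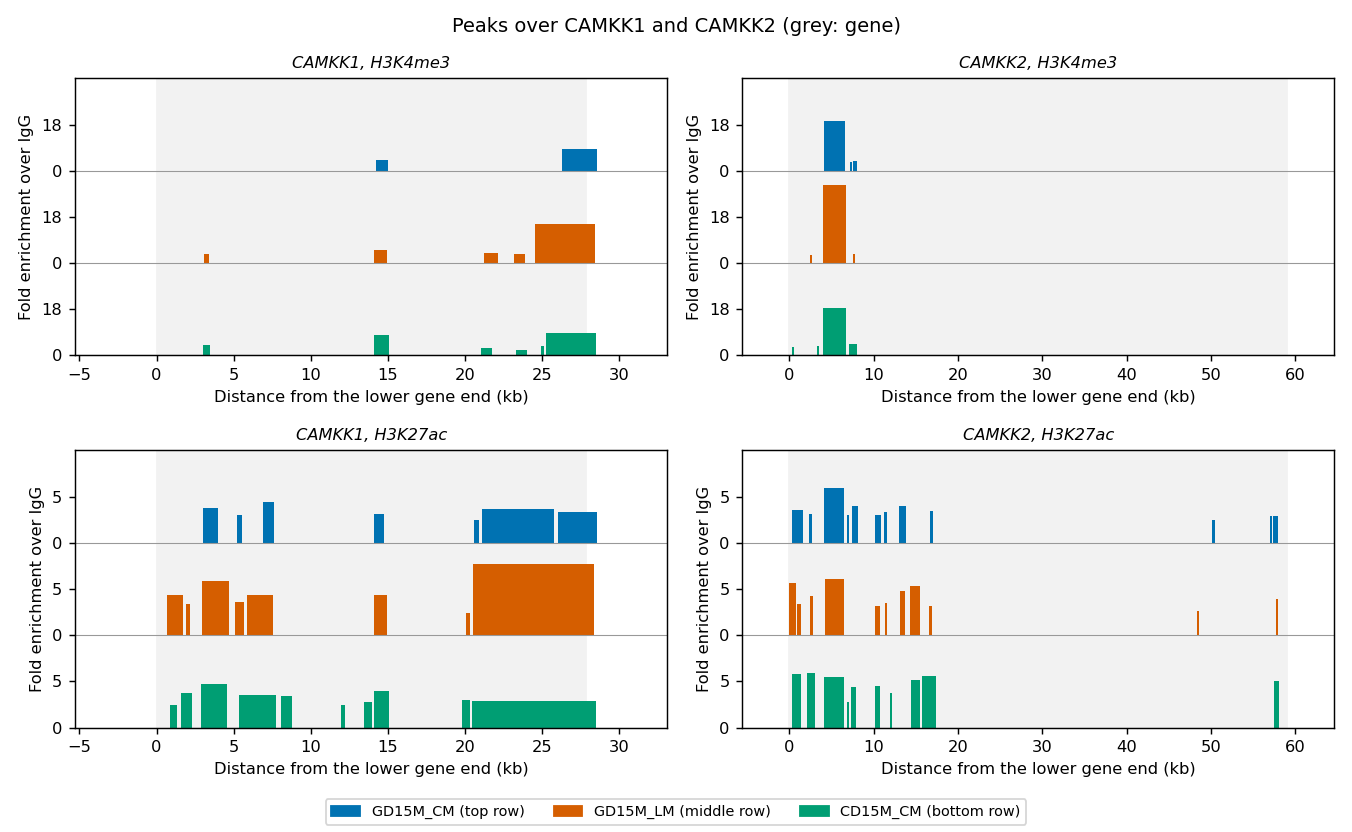
Peaks over CAMKK1 (left) and CAMKK2 (right) for H3K4me3 (top) and H3K27ac (bottom), with distance from the lower gene end in kb on the horizontal axis and fold enrichment over IgG as the height of each box, drawn in a row per tissue. The H3K27ac domain at the upper end of CAMKK1 spans 7835 bp in GD15M_LM and 8003 bp in CD15M_CM at heights of 7.66 and 2.85, and the tall H3K4me3 box of CAMKK2 lies about 4 kb inside the gene in all 3 tissues.

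CAMK1 (chromosome 13, 66044713 to 66055290, 10.6 kb) is the shortest of the 9 and encodes a kinase activated by the kinase kinases. Its upper end carried H3K4me3 at a fold enrichment of 11.6 in GD15M_CM, 17.6 in GD15M_LM and 16.7 in CD15M_CM, at percentiles of 71.0, 75.8 and 77.0. The 3 lists lay within 10 points for this mark. Under the strict threshold, GD15M_LM minus GD15M_CM was 15.4 points and GD15M_CM minus CD15M_CM was -11.1 points. H3K27ac at the same end stood at 79.7, 70.6 and 93.8, so cyclic muscle was 14.1 points above pregnant circular muscle, a difference that was 5.6 points when peaks were ranked by −log10 p. The lower end of CAMK1 overlaps the DNA repair gene OGG1, and the main region did not.

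CAMK1D (chromosome 10, 59199541 to 59630191, 431 kb) encodes another kinase of the CAMK1 group and is the longest gene of the set. Its main H3K4me3 peak, at the upper end, had a fold enrichment of 13.2 in GD15M_CM, 33.9 in GD15M_LM and 27.2 in CD15M_CM. As percentiles these were 74.6, 97.5 and 92.7, so pregnant circular muscle was 22.8 points below longitudinal and 18.1 points below cyclic circular muscle, with peaks of nearly equal length (3908, 4003 and 4148 bp). This was the largest H3K4me3 difference between the layers among the 9 genes. H3K27ac over the same end stood at 90.2, 86.4 and 97.2, so GD15M_CM was within 10 points of both other lists, and the peak was 2327, 3109 and 3350 bp long.

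The body of CAMK1D was covered with small H3K27ac peaks, and the gene held 41 of them in GD15M_CM, 22 in GD15M_LM and 42 in CD15M_CM, covering 28.0, 16.2 and 27.6 kb. Of the 697 protein-coding genes of at least 300 kb, which had a median of 3, 3 and 4 peaks, 657, 641 and 656 had fewer. With the same number of top peaks taken from each list the counts were 29, 22 and 25, so the gap between the layers narrowed when the longer circular muscle lists were shortened. Several inner peaks ranked as high as the one at the end. A region about 391.7 kb from the lower end stood at percentiles of 82.9 in GD15M_CM, 95.8 in GD15M_LM and 94.8 in CD15M_CM, and its GD15M_LM peak (59591231 to 59592987) was the strongest H3K27ac peak of the gene in that tissue. Another, about 408 kb from that end (59607810 to 59608996 in GD15M_CM), was the strongest of the gene in GD15M_CM, at 92.4, and stood at 88.9 in CD15M_CM. A region near 317.8 kb was marked in both circular muscle lists, up to percentile 93.1 in CD15M_CM, and held no peak in GD15M_LM.

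CAMK4 (chromosome 2, 115910403 to 116234835, 324 kb) encodes a kinase best known from neurons and T cells, where it acts on transcription through CREB1. It ranked lowest of the 9 genes in both marks in GD15M_CM and in GD15M_LM, but in neither mark in CD15M_CM. A short H3K4me3 peak about 91.0 kb from the lower end was its only one, with a fold enrichment of 4.59 in GD15M_CM, 7.61 in GD15M_LM and 10.2 in CD15M_CM, at percentiles of 47.1, 56.7 and 66.4. Over it, H3K27ac was absent from the GD15M_CM list and had a fold enrichment of 3.40 (percentile 35.0, 707 bp) in GD15M_LM and 3.68 (percentile 56.1, 562 bp) in CD15M_CM. Both marks therefore ran in the same order, with cyclic muscle highest and pregnant circular muscle lowest. The 2 H3K27ac peaks were weak, with −log10 p of 5.31 and 6.61, and none passed a strict threshold, set at a fold enrichment of 5 and a −log10 p of 10. Among the long genes, 143 of 697 had no H3K27ac peak in GD15M_CM.

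Markers of the cells in which CAMK4 is best known did not all run in its order. H3K4me3 at T cell genes was highest in GD15M_CM, with a median percentile of 67.4 against 59.7 in GD15M_LM and 52.6 in CD15M_CM, the reverse of CAMK4. Of 5 placed genes of neurons and glia, 2, 3 and 3 had an H3K4me3 peak and 2, 3 and 3 an H3K27ac peak in GD15M_CM, GD15M_LM and CD15M_CM. SNAP25, a synaptic gene of that list, stood at H3K4me3 percentiles of 27.4, 56.1 and 58.9. The part of these cells in the CAMK4 values was not tested.

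**Figure D3:**
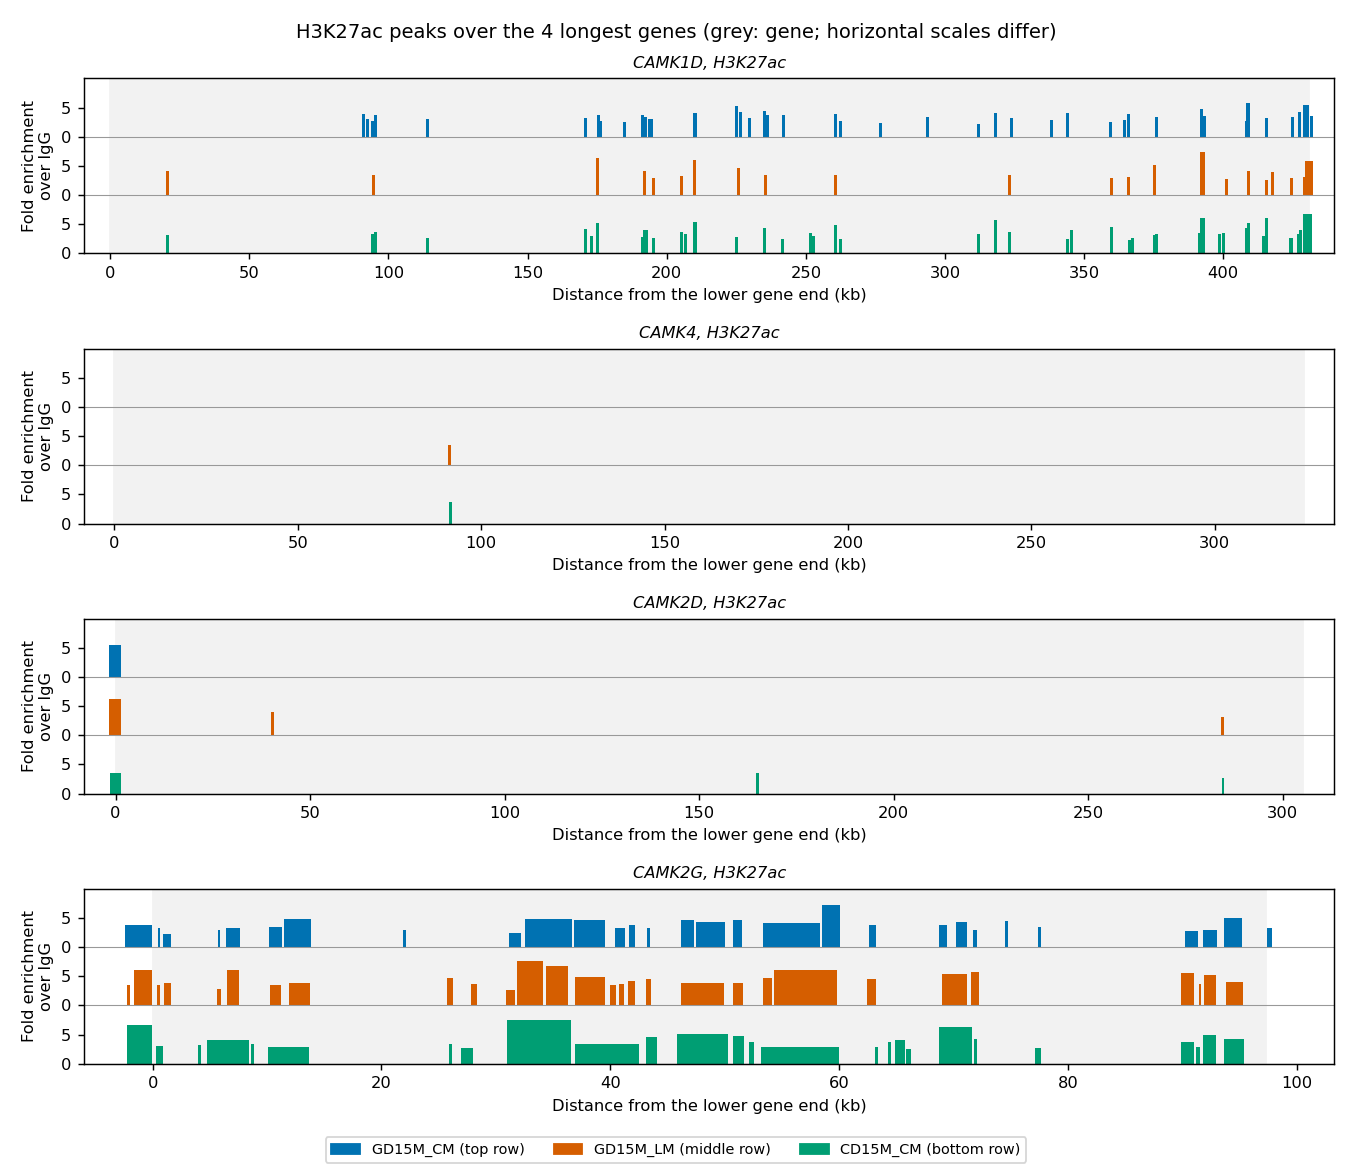
H3K27ac peaks over CAMK1D, CAMK4, CAMK2D and CAMK2G, with distance from the lower gene end in kb on horizontal axes of different scale and fold enrichment over IgG as the height of each box, drawn in a row per tissue. CAMK1D holds 41, 22 and 42 peaks in GD15M_CM, GD15M_LM and CD15M_CM and CAMK2G 29, 29 and 26, whereas CAMK4 holds 0, 1 and 1 and CAMK2D 1, 3 and 3.

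CAMK2D (chromosome 8, 108916019 to 109221317, 305 kb) encodes the delta form of CAMK2. Both marks lay over its lower end, with an H3K4me3 fold enrichment of 16.7 in GD15M_CM, 24.1 in GD15M_LM and 11.2 in CD15M_CM. As percentiles these were 82.8, 87.7 and 67.9, so both pregnant tissues ranked above the cyclic one, GD15M_CM by 14.9 points. H3K27ac at the same end followed this order more widely apart, at percentiles of 90.3, 89.9 and 53.5, and GD15M_CM was 36.8 points above CD15M_CM. The lengths of the peaks did not follow the ranks, with 3561, 3918 and 3842 bp for H3K4me3 and 2970, 3014 and 3043 bp for H3K27ac. Away from the end this long gene was almost bare, with 0, 2 and 2 inner H3K27ac peaks, of which the highest stood at 55.9 in GD15M_LM. Ranked by −log10 p, the H3K27ac difference between pregnant and cyclic circular muscle was 9.97 points, under the size counted here.

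CAMK2G (chromosome 14, 76535095 to 76632381, 97.3 kb) encodes the gamma form of CAMK2. Its lower end is crowded, since the heparan sulfate enzyme gene NDST2 ends or begins 400 bp away and another annotated gene overlaps it, and PLAU, the urokinase gene, overlaps the upper end. The strongest H3K4me3 peak of the window lay at the lower end over these neighbours, at percentiles of 94.3 in GD15M_CM, 89.3 in GD15M_LM and 83.6 in CD15M_CM. It was 2431, 5279 and 6373 bp long, with GD15M_CM showing 3 separate smaller peaks beside it. The strongest peak over no other gene lay inside CAMK2G, about 54.7 kb from the lower end, at 75.4, 70.8 and 70.9. Without peaks over other genes, the difference between pregnant and cyclic circular muscle was 4.57 points in place of 10.7, so the larger value rests on a region shared with neighbouring genes.

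The interior of CAMK2G carried wide H3K27ac domains. In GD15M_CM 29 peaks covered 35.1% of the window, in GD15M_LM 29 peaks covered 34.9%, and in CD15M_CM 26 peaks covered 44.9%. Of these peaks, 20, 21 and 19 lay over no other annotated gene, among them the strongest of each list. The strongest GD15M_CM peak (76593559 to 76595130) was at percentile 97.7. The strongest GD15M_LM peak (76566954 to 76569208) was at 96.0, and that of CD15M_CM (76566064 to 76571675, 5612 bp) at 98.4. The longest was a CD15M_CM peak of 6795 bp (76588295 to 76595089) with a fold enrichment of 2.94, at percentile 25.05, that included the place of the strongest GD15M_CM peak. The gene was thus among the highest in H3K27ac in each list, but the place of the highest peak differed, about 58.5 kb from the lower end in GD15M_CM and near 31 to 32 kb in both other tissues. One region of at least percentile 75 was found in a single tissue among all 9 genes, and it was here: a GD15M_CM peak of 262 bp (76609611 to 76609872) with a fold enrichment of 4.51, at 79.5. It also lies within another annotated protein-coding gene that overlaps CAMK2G.

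PRKAA1 (chromosome 16, 25745902 to 25783524, 37.6 kb) encodes the alpha 1 catalytic subunit of AMPK. H3K4me3 at its upper end had a fold enrichment of 25.02 in GD15M_CM, 21.3 in GD15M_LM and 21.5 in CD15M_CM, at percentiles of 95.9, 82.9 and 85.4. H3K27ac over the same end had a fold enrichment of 8.04, 5.39 and 4.06, at percentiles of 98.9, 82.1 and 68.7. Pregnant circular muscle was highest for both marks, and for H3K27ac by 16.8 points over longitudinal and 30.2 points over cyclic circular muscle. The single H3K27ac peak of the gene was 1473, 1079 and 1424 bp long. Ranked by −log10 p, the H3K4me3 differences of 13.0 and 10.5 points were 8.7 and 8.2 points, under the size counted here, and the H3K27ac difference from cyclic muscle was 17.06 points in place of 30.2.

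PRKAA2 (chromosome 6, 155683392 to 155754283, 70.9 kb) encodes the alpha 2 catalytic subunit, which is the main form in skeletal muscle and heart. H3K4me3 at its upper end had a fold enrichment of 17.8 in GD15M_CM, 15.0 in GD15M_LM and 20.4 in CD15M_CM, at percentiles of 85.3, 70.8 and 83.6. H3K27ac there had a fold enrichment of 5.63, 3.84 and 3.34, at percentiles of 91.8, 50.7 and 42.6. GD15M_CM was therefore 41.1 points above GD15M_LM and 49.2 points above CD15M_CM in H3K27ac, the latter with an H3K4me3 difference of 1.7 points. These H3K27ac gaps were smaller when peaks were ranked by −log10 p, with GD15M_LM minus GD15M_CM at -22.26 points and GD15M_CM minus CD15M_CM at 18.21 points, and the H3K4me3 difference between the layers was -6.79 points. A small inner H3K27ac peak (155739923 to 155740193, 271 bp) stood at 78.5 in GD15M_CM and 16.7 in CD15M_CM, and was not called in GD15M_LM. Both alpha subunits had their highest H3K27ac rank in pregnant circular muscle, and this held with each other way of ranking or choosing peaks that was run.

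Between the muscle layers of pregnant gilts, 6 of the 9 genes had a higher H3K4me3 percentile in GD15M_LM than in GD15M_CM, beside 48.3% of all genes with a peak in either list. The 6 were CAMKK1, CAMKK2, CAMK1, CAMK1D, CAMK4 and CAMK2D, that is, the kinase kinases, every CAMK1 or CAMK4 kinase of the set and the delta form of CAMK2. Only CAMK1D among them was higher by at least 10 points, beside 20.2% of all genes. CAMK2G, PRKAA1 and PRKAA2 were higher in GD15M_CM, and both AMPK genes by at least 10 points (13.0 and 14.5), beside 20.9%. By −log10 p, GD15M_LM minus GD15M_CM was -8.69 points for PRKAA1 and -6.79 for PRKAA2, both under that size. Under the strict threshold, with ranks taken anew among the peaks that passed it, all 6 genes on the GD15M_LM side passed 10 points. They were CAMKK1 (20.9), CAMKK2 (15.5), CAMK1 (15.4), CAMK1D (49.2), CAMK4 (16.7, no peak left in GD15M_CM) and CAMK2D (13.0). PRKAA1 (-24.1) and PRKAA2 (-24.8) also lay further apart then, and CAMK2G was at -8.3. No share of all genes is given for that threshold. Over the full lists, the median difference of the 9 was 4.90 points in favour of GD15M_LM and that of all genes -0.40 points. The middle 50% of all genes ran from -8.33 to 7.69 points. CAMK1D, CAMK4, PRKAA1 and PRKAA2 lay outside that range and the other genes inside it.

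For H3K27ac, 3 of the 9 genes had a higher percentile in GD15M_LM, beside 42.8% of all genes, namely CAMKK1 by 18.8 points, CAMK1D by 3.3 and CAMK4 by 35.0. At least 10 points separated CAMKK1 and CAMK4 in favour of GD15M_LM, beside 22.5% of all genes, and PRKAA1 and PRKAA2 in favour of GD15M_CM, beside 33.8%. By fold enrichment itself, 7 of 9 genes were higher in GD15M_LM, whose list has the higher median fold enrichment, 3.79 against 3.49, so the count of 3 holds for ranks within the lists. PRKAA1 and PRKAA2 were higher in GD15M_CM on both scales. Epithelial genes moved with this comparison: 7 of 7 had an H3K4me3 percentile at least 10 points higher in GD15M_CM than in GD15M_LM, and 6 of 7 an H3K27ac percentile. For H3K4me3, smooth muscle genes were at least 10 points higher in GD15M_LM in 4 of 10 and in GD15M_CM in 0 of 10. The shares of all genes were 20.2% and 20.9%. For H3K27ac the smooth muscle counts were 4 and 2 of 10, beside 22.5% and 33.8% of all genes. The part of these cells in the values of the 9 genes was not tested.

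Between pregnant and cyclic circular muscle, 6 of the 9 genes had a higher H3K4me3 percentile in GD15M_CM than in CD15M_CM, beside 40.7% of all genes. With peaks ranked by −log10 p it was 3 of 9 (CAMK2D, CAMK2G and PRKAA1), since CAMKK1, CAMKK2 and PRKAA2 then turned to the cyclic side. At least 10 points separated CAMK2D (14.9), CAMK2G (10.7) and PRKAA1 (10.5) in favour of pregnancy, beside 12.4% of all genes, and CAMK1D (18.1) and CAMK4 (19.3) in favour of the cycle, beside 23.9%. Ranked by −log10 p, CAMK2D and CAMK1D stayed past 10 points, while CAMK2G (5.01), PRKAA1 (8.19) and CAMK4 (-9.16) fell under it. For H3K27ac, 4 of 9 were higher in GD15M_CM, beside 49.2% of all genes. CAMK2D by 36.8, PRKAA1 by 30.2 and PRKAA2 by 49.2 points were at least 10 points higher in pregnancy, beside 25.5% of all genes, and CAMK1 by 14.1 and CAMK4 by 56.1 points in the cycle, beside 27.4%. By fold enrichment, CAMK2D and PRKAA1 were on the pregnant side and CAMK4 on the cyclic side by at least 10 points in both marks. By −log10 p each of the 3 passed 10 points in 1 mark only. The H3K27ac difference of CAMK2D was then 9.97 points, and the H3K4me3 differences of PRKAA1 and CAMK4 were 8.19 and -9.16 points. Smooth muscle genes had a higher H3K4me3 percentile by at least 10 points in CD15M_CM in 5 of 10 and in GD15M_CM in 1 of 10. T cell genes did so in GD15M_CM in 4 of 6 and in CD15M_CM in 0. For H3K27ac the smooth muscle counts were 3 and 0 of 10, and T cell genes were higher in GD15M_CM in 3 of 6. The part of these cells in the values of the 9 genes was not tested. The layer and the pregnancy comparison share the GD15M_CM list, so a gene that is high or low in that list moves in both.

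GD15M_LM and CD15M_CM differ in both layer and state, which cannot be told apart, and their values are given side by side only. For H3K4me3, 5 of the 9 genes had a higher percentile in GD15M_LM, beside 39.9% of all genes, and 2 by at least 10 points, beside 12.8%, against 1 in CD15M_CM, beside 24.7%. For H3K27ac, 4 of 9 were higher in GD15M_LM, beside 41.5%, and 3 by at least 10 points, beside 20.9%, against 2 in CD15M_CM, beside 34.5%. The protein-coding genes with values closest to those of CAMKK1 over the 6 lists, by Euclidean distance in percentile points, were BST2 (8.43), ST3GAL4 (9.32) and POLQ (9.36), among 19549 genes. Those closest to CAMKK2 were SRPK2 (3.77), LRRC49 (5.35) and DMAP1 (5.47).

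**Figure D4:**
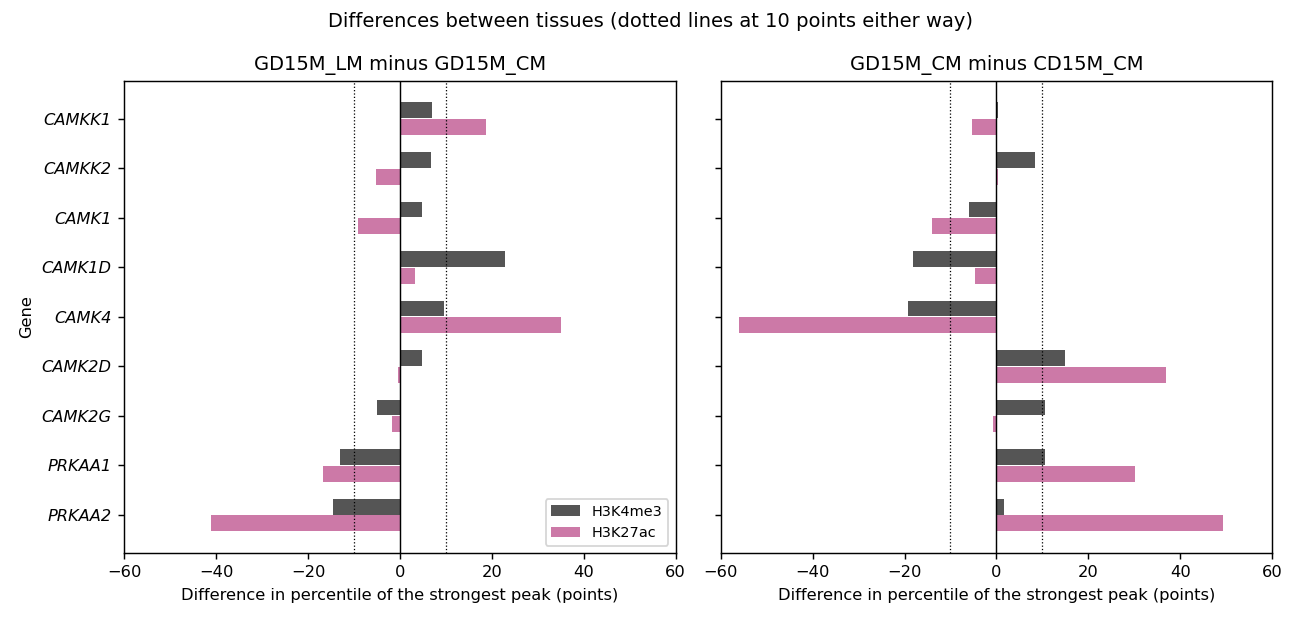
Difference in the percentile of the strongest peak, in points, between GD15M_LM and GD15M_CM (left) and between GD15M_CM and CD15M_CM (right), with a bar per gene and mark and dotted lines at 10 points either way. PRKAA1 and PRKAA2 have H3K27ac bars of -16.8 and -41.1 on the left and 30.2 and 49.2 on the right, and CAMK4 has bars of 35.0 and -56.1. Both panels share the GD15M_CM list.

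Counted over the 9 genes, H3K27ac formed 94, 77 and 98 peaks in GD15M_CM, GD15M_LM and CD15M_CM, covering 91.3, 83.3 and 112 kb. Those near a gene end numbered 19, 19 and 16, and those inside 75, 58 and 82. CAMK1D and CAMK2G alone held 70, 51 and 68 of them. H3K4me3 formed 21, 32 and 38 peaks, of which 13, 14 and 16 were near an end and 8, 18 and 22 inside. The higher H3K4me3 counts of GD15M_LM and CD15M_CM were thus mostly small inner peaks, and the ends differed by 3 peaks at most. The counts of H3K27ac depend strongly on the threshold, since only 4, 10 and 11 inner peaks passed the strict threshold.

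When overlapping peaks of the 3 tissues were joined, the 9 genes held 117 H3K27ac regions, of which 46 (39.3%) were marked in all 3 tissues, 27 in 2 and 44 in 1. Over the whole lists, regions between genes included, 31.5% of joined H3K27ac regions were marked in all 3 tissues and 47.3% in 1. Regions shared by all had a median percentile of 86.6 for the highest peak in each, against 58.8 for regions in 2 tissues and 38.4 for those in 1. Their median length was 1599 bp, against 570 bp for regions in 2 tissues. The percentile is the maximum and the length the full extent of all joined peaks. Both therefore tend to rise with the number of tissues, and they are no separate result about shared regions. Among the regions of 1 tissue, 24 were from CD15M_CM, 16 from GD15M_CM and 4 from GD15M_LM, the order of the sizes of the lists. CAMK2G had 15 of its 28 regions in all 3 tissues, CAMK1D 17 of 54, CAMKK1 4 of 9 and CAMKK2 6 of 15. For H3K4me3, 13 of 42 regions were marked in all 3 tissues, 9 in 2 and 20 in 1, and none of the last was from GD15M_CM. The whole lists had 44.1% of H3K4me3 regions in all 3 tissues and 39.6% in 1. CAMK1D and CAMK2G thus differed in how far their H3K27ac was held in common, although both carried many peaks.

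Of the H3K27ac peaks of the 9 genes, those that overlapped an H3K4me3 peak of the same tissue were 17 of 94 in GD15M_CM (18.1%, 95% Wilson interval 11.6 to 27.1). In GD15M_LM they were 27 of 77 (35.1%, 25.4 to 46.2) and in CD15M_CM 27 of 98 (27.6%, 19.7 to 37.1). The intervals cover counting error only, and peaks of a gene are not replicates. Over the whole lists the shares were 34.1%, 46.1% and 35.2%, each above the share of the 9 genes. CAMK1D and CAMK2G held 70, 51 and 68 of the H3K27ac peaks counted here, so the intervals are not a test of that difference. The share also depends on the threshold, since in GD15M_CM it was 75% of 8 peaks under the strict threshold. Near the ends 63.2%, 73.7% and 68.8% of H3K27ac peaks carried H3K4me3, and inside 6.67%, 22.4% and 19.5%. In the other direction 81.0%, 78.1% and 84.2% of H3K4me3 peaks overlapped H3K27ac.

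Of 44 other genes of the pathway, all of them placed, 43, 44 and 43 had an H3K4me3 peak in GD15M_CM, GD15M_LM and CD15M_CM and 42, 44 and 42 an H3K27ac peak. For H3K4me3, 13 were at least 10 points higher in GD15M_LM and 6 in GD15M_CM, and 5 were higher in GD15M_CM than in CD15M_CM and 10 lower. For H3K27ac the counts were 6 and 11 between the layers and 8 and 9 between pregnant and cyclic muscle. These stand beside the shares of all genes given above, in the same order 20.2%, 20.9%, 12.4% and 23.9% for H3K4me3 and 22.5%, 33.8%, 25.5% and 27.4% for H3K27ac.

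The beta and gamma subunits, which hold the AMPK complex together and sense AMP, numbered 5. Between pregnant and cyclic circular muscle, 4 of them had an H3K27ac percentile at least 10 points higher in GD15M_CM and 0 in CD15M_CM. The shares of all genes were 25.5% and 27.4%. Ranks by −log10 p are not given here for these subunits. PRKAG1 stood at 98.7 in GD15M_CM, 95.5 in GD15M_LM and 49.8 in CD15M_CM, and PRKAB1 at 94.8, 64.1 and 52.0. PRKAB2 stood at 86.4, 93.4 and 70.7. The fourth was PRKAG3, the gamma form of fast skeletal muscle, at 66.1, 77.8 and 56.1, which passed by a difference of only 10.02 points. For H3K4me3, PRKAB1, PRKAB2 and PRKAG1 were at least 10 points higher in GD15M_CM than in CD15M_CM and PRKAG3 was lower, while PRKAB1, PRKAB2 and PRKAG2 were higher in GD15M_CM than in GD15M_LM. Between the layers in H3K27ac, PRKAB1 was at least 10 points higher in GD15M_CM and PRKAG3 in GD15M_LM, and the other 3 were within 10 points.

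Of 10 other calmodulin-dependent kinases and inhibitors of CAMK2, 6 had an H3K4me3 percentile at least 10 points higher in GD15M_LM than in GD15M_CM and 0 lower, and 6 were at least 10 points higher in CD15M_CM than in GD15M_CM and 0 lower. The shares of all genes were 20.2% and 20.9% between the layers, and 23.9% and 12.4% between cyclic and pregnant muscle. MYLK, the myosin light chain kinase of smooth muscle, stood at 76.5 in GD15M_CM, 98.5 in GD15M_LM and 97.2 in CD15M_CM. DAPK1, a death-associated kinase, stood at 74.0, 99.6 and 94.4. CAMK1G, another CAMK1 kinase, stood at 72.7, 93.1 and 88.6, and PNCK, CAMK2B and CAMK2N2 were the remaining 3 in both comparisons. In these 6, as in CAMK1D, pregnant circular muscle was lowest in H3K4me3, which follows from how the 6 were counted. For H3K27ac, 3 of the 10 were at least 10 points higher in GD15M_LM and 1 in GD15M_CM. Between pregnant and cyclic circular muscle, 1 was higher in GD15M_CM and 3 in CD15M_CM by that size. Of all genes, 22.5% and 33.8% passed it in H3K27ac between the layers, and 25.5% and 27.4% between pregnant and cyclic muscle.

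CALM3, a calmodulin gene, had its highest H3K4me3 percentile in GD15M_CM (90.5, against 78.3 in GD15M_LM and 83.8 in CD15M_CM). Calcineurin, the calmodulin-dependent phosphatase, had PPP3CA at H3K27ac percentiles of 34.7, 80.5 and 88.7 and PPP3CB at 98.3, 63.2 and 92.5. Of 5 other upstream kinases and partners of AMPK, 3 had H3K27ac at least 10 points higher in GD15M_CM than in GD15M_LM, among them STK11 (LKB1), at 83.6, 46.0 and 87.6, with STRADB and MAP3K7. None was higher in GD15M_LM by that size, and the shares of all genes were 33.8% and 22.5%. None of the 3 phosphatases of these kinases differed by 10 points in H3K4me3. In H3K27ac PPM1E stood at 48.0, 57.9 and 78.0 and PPM1A at 87.0, 97.0 and 56.9, so they ran in opposite directions between pregnant and cyclic muscle.

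Of 14 targets of the kinases, 6 had H3K4me3 at least 10 points higher in GD15M_LM than in GD15M_CM and 1 lower. For H3K27ac, 1 was at least 10 points higher in GD15M_LM and 4 in GD15M_CM. The shares of all genes were 20.2% and 20.9% for H3K4me3 and 22.5% and 33.8% for H3K27ac. MEF2C, a muscle transcription factor freed by calmodulin kinase signalling, stood at 77.5 in GD15M_CM, 98.1 in GD15M_LM and 91.1 in CD15M_CM. HDAC5, the histone deacetylase that holds MEF2 back and is a substrate of these kinases, was the 1 on the circular side, at 91.2, 60.7 and 86.4. PPARGC1A, the coactivator of mitochondrial genes downstream of AMPK, stood at 69.7, 89.3 and 71.5. HDAC4, a deacetylase of the same class, stood at 79.3, 93.8 and 65.2, on the longitudinal side with MEF2C. In H3K27ac HDAC5 stood at 98.9 in GD15M_CM and 78.8 in GD15M_LM, while MEF2C was within 10 points.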

How the data were processed

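CUT&Tag of H3K4me3, H3K27ac and IgG was analysed in 3 tissues with n = 2 gilts each, and all 18 libraries were assigned to groups from their labels. The authors mapped reads to the Sscrofa11.1 assembly with BWA 0.7.17-r1188, filtered them with SAMtools 1.9 and Picard 2.8.3, pooled both gilts and called peaks with MACS2 2.2.6. The 6 deposited lists give the fold enrichment of each peak as a ratio over IgG and its −log10 p, both as MACS2 wrote them for the authors, with peak length in bp. The header of the −log10 p column was lost in the deposited lists. It was read as −log10 p because the later column with the same lost header starts at 1.30 to 1.31, as −log10 q at a cutoff would. No per-sample column was left unused. Depth per gilt is not in the lists, pooling lets a strong library dominate a peak, and a domain can be called as several peaks.

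Genes were placed by RefSeq coordinates of Sscrofa11.1, without strand. Peaks within 3 kb of a gene were taken, and percentiles are ranks of fold enrichment within each list. The overlap was at least 1 bp. No test was made, since each group is 1 list. The 9 genes, the pathway and marker lists and the rule for named peaks (strongest and longest peak per gene, peaks of 1 tissue at percentile 75 or more, and pathway genes differing by 10 points) were chosen with earlier results of these data known. Alternatives were a strict threshold, ranking by −log10 p, equal numbers of top peaks, a window of 1 kb, gene ends only, merging within 1 kb and an overlap of 50%. Fold enrichment itself, leaving out peaks over other genes and reading H3K27ac over the main H3K4me3 region were added after seeing the data. Python 3.11.15, pandas 2.3.3, NumPy 2.4.6, SciPy 1.17.1 and Matplotlib 3.10.9 were used, and the overlap and rank code was tested on simulated data. RNA-seq, promoter sequences and motifs were not analysed here. Some genes of the lists are counted but not reported here by name.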

Additional observations from a re-analysis of the deposited data

How the results depend on the processing

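No paired analysis was possible because the reads of both gilts were joined before peak calling, and for the same reason no gilt could be left out. The peak nearest the gene start was not run, since strand was not used. Of the alternatives to the counts and shares, 66 moved little and 22 moved further. By fold enrichment itself, added after seeing the data, 7 of 9 genes were higher in GD15M_LM than in GD15M_CM for H3K27ac. Ranked by −log10 p, 3 of 9 were higher in GD15M_CM than in CD15M_CM for H3K4me3. Under the strict threshold 4 genes kept an H3K27ac peak in CD15M_CM, peaks near an end numbered 4, 6 and 6 and inner peaks 4, 10 and 11 in GD15M_CM, GD15M_LM and CD15M_CM, and 13, 10 and 2 regions were left in 1, 2 and 3 tissues. The share with H3K4me3 was then 75% of 8 peaks in GD15M_CM and 56.2% of 16 in GD15M_LM. Merging peaks under 1 kb apart left 12 end and 49 inner peaks in GD15M_CM, 12 and 38 in GD15M_LM and 50 inner peaks in CD15M_CM. With an overlap of 50%, 16.3% of CD15M_CM peaks carried H3K4me3, and peaks covered in both other tissues were 64.9% in GD15M_LM and 35.7% in CD15M_CM. Of the values for single genes, 117 moved little, 37 moved by more, and none that was past 10 points changed sign. Smaller differences did turn and end past 10 points: 3 of CAMKK2 with peaks near the gene ends alone, given in the report; over the main region CAMKK1 H3K27ac between pregnant and cyclic circular muscle (37.1) and CAMK2G H3K27ac between the layers (24.5); and under the strict threshold CAMK2D H3K27ac between the layers (26.2). Others passed 10 points without turning, among them H3K4me3 of CAMKK1, CAMKK2, CAMK1, CAMK4 and CAMK2D between the layers under the strict threshold. The cause of these shifts was not tested. Shares and counts of weak peaks are limited by the depth of the lists, which is unknown here.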
